A study of Bos taurus with 15 samples.

Results

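Estradiol is made in the granulosa cells (GC) of the ovarian follicle, and 7 genes that make, convert or sense it were followed here, CYP19A1, HSD17B1, HSD17B4, HSD17B12, ESR1, ESR2 and CYP1B1. They were chosen by name, as the transcript clusters whose only gene symbol in the platform annotation is one of these symbols. The probes of a transcribed locus together form a transcript cluster. All 7 genes were found, with 8 of the 26773 clusters on the array, since ESR1 has 2 clusters and each other gene 1. The values are the authors' log2 signals, so that a step of 1 is a doubling, and levels are compared only within a cluster, because the probes of different clusters differ in brightness.

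The cells were aspirated from bovine follicles below 6 mm, pooled over many ovaries from an abattoir irrespective of age and cycle stage, frozen, and cultured for 8 days without serum on collagen. All cultures received FSH (20 ng/ml), R3 IGF-1 (50 ng/ml), insulin (10 ng/ml) and androstenedione (2 µM), the androgen on which aromatase acts. Of the 15 cultures, with 1 Bovine Gene 1.0 ST array each, 5 also received 30 mM sodium L-lactate, 5 received 30 mM NaCl as vehicle control and 5 were left untreated. The labels leave unstated whether the 5 cultures of a group were separate pools, and the p-values then reflect nothing but the spread between these samples, which may be technical.

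In the follicle, the cells of the theca make androgens and the GC turn them into estrogens under FSH. Aromatase, the product of CYP19A1, forms estrone from androstenedione, and a reductive hydroxysteroid dehydrogenase of the HSD17B family then forms estradiol from estrone. Estradiol acts through the nuclear receptors ESR1 and ESR2, of which ESR2 is known as the main form of GC. After the LH surge, bovine GC lose CYP19A1 transcripts and begin to turn into luteal cells.

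The arrays were alike within groups, with correlations from 0.995 to 0.997 over all clusters, and their medians lay between 4.52 and 4.60. Groups were compared with limma, fitted to every cluster. To be called differentially expressed a cluster had to pass an adjusted p of 0.05 and to differ by more than 1.5-fold, which is a log2 difference of 0.58. Of the GC marker genes FOXL2, FSHR, AMH, INHA, INHBA, FST, NR5A2 and GATA4, all 8 have a cluster, and AMH was the only one to be differentially expressed in any comparison, lower with L-lactate than with NaCl by 0.74 (SE 0.08, adjusted p = 6.4e-06 by limma). Detection calls were not analysed here, so whether the dimmer clusters stood above background is not known. In RNA of whole cultures, fewer cells of a type and less RNA per cell cannot be told apart.

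Of the 7 genes, CYP19A1 alone was differentially expressed. It was lower in L-lactate treated GC than in either control, which made 1 gene of 7 between L-lactate and NaCl, where 1.89% of all clusters were differentially expressed (0.601% as lower). Against untreated cells it was again 1 of 7, with 3.27% of all clusters (1.33% as lower). Between NaCl and untreated cells it was 0 of 7 by limma and by the methods' t-test, with 1.15% of all clusters, and 5 of 7 had an unadjusted p under 0.05, as did 23.2% of all clusters. By the adjusted p alone, 5 genes differed between L-lactate and NaCl, 4 between L-lactate and untreated and 5 between NaCl and untreated, where 22.2%, 27.1% and 11.9% of all clusters did. The median log2 difference of the 7 genes was 0.15, -0.14 and -0.10 in these comparisons, and that of all clusters was -0.01, -0.02 and 0.00.

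**Figure D1:**
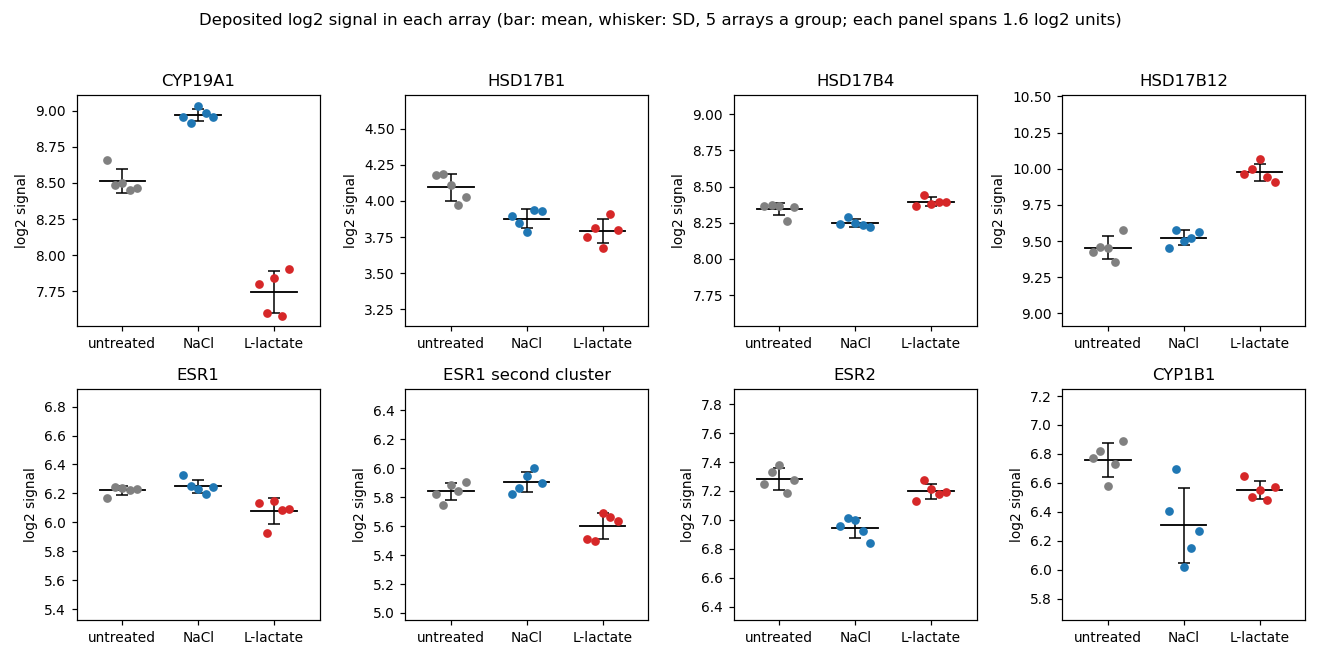
Deposited log2 signal of the 8 clusters (vertical axes, each spanning the same number of log2 units) in the untreated, NaCl and L-lactate arrays, with a point per array, a bar for the mean of 5 arrays and a whisker for the SD. CYP19A1 shows 3 separate levels (8.51 untreated, 8.97 NaCl, 7.75 L-lactate), HSD17B12 is higher with L-lactate (9.97) than in both controls, and the NaCl arrays of CYP1B1 are spread from 6.02 to 6.70.

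CYP19A1 codes for aromatase, the rate-limiting enzyme of estrogen synthesis. Its log2 signal was 7.80, 7.60, 7.84, 7.58 and 7.91 in the L-lactate arrays. In the NaCl arrays it was 8.96, 8.92, 9.04, 8.98 and 8.96, and in the untreated arrays 8.66, 8.49, 8.50, 8.45 and 8.46. All 5 L-lactate arrays were thus below all untreated arrays, and these below all NaCl arrays, an order without overlap that 106 clusters (0.396% of all) shared. CYP19A1 fell by 1.22 with L-lactate against NaCl (SE 0.06, 95% interval -1.36 to -1.09, adjusted p = 2.7e-09 by limma), to a level 2.34-fold lower. The lowest NaCl array lay 1.01 above the highest L-lactate array. Ordered by log2 difference, this was the 12th lowest of all clusters. Against untreated cells it fell by 0.77 (95% interval -0.90 to -0.63, adjusted p = 2.2e-07), a 1.70-fold difference and the 179th lowest.

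With NaCl, CYP19A1 was higher than in untreated cells, by 0.46 (95% interval 0.32 to 0.59, adjusted p = 1.4e-04 by limma). At 1.37-fold this was short of the fold threshold, with all 5 NaCl arrays above all untreated arrays, as in 5.55% of all clusters. The decrease with L-lactate was therefore larger against NaCl than against untreated cells. The comparisons share arrays, since each group enters in more than 1 of them. The spread between arrays was 0.15 (SD, n = 5) with L-lactate, 0.04 with NaCl and 0.08 in untreated cells. Cattle also carry a transcribed pseudogene of aromatase, which the RefSeq annotation lists as a synonym of CYP19A1, and whether probes of this cluster match it was not tested.

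The average of the GC markers had the same order of groups, although the single markers did not all have it. Over the 8 marker clusters, the average log2 signal ranged over 8.95 to 9.08 in the L-lactate arrays, 9.10 to 9.17 in the untreated arrays and 9.26 to 9.40 in the NaCl arrays, without overlap. Between L-lactate and NaCl, 6 of the 8 markers were lower by the adjusted p and 0 were higher, with log2 differences from -0.74 for AMH to -0.01 for NR5A2, where 22.2% of all clusters differed in either direction. Between L-lactate and untreated cells 2 were higher, NR5A2 with 0.27 (adjusted p = 1.1e-06 by limma) and GATA4 with 0.16 (adjusted p = 0.032), and 4 were lower, where 27.1% of all clusters differed. Between NaCl and untreated cells 6 were higher and 0 lower, where 11.9% of all clusters differed. Of 5 stromal markers (PDGFRA, DCN, LUM, COL1A1, COL3A1), 2 were differentially expressed between L-lactate and NaCl, where 1.89% of all clusters were. These were PDGFRA with 0.59 and COL1A1 with 1.19. Against untreated cells these were at 0.86 and 0.68 with L-lactate, while COL3A1 fell by 1.10 with L-lactate and by 0.67 with NaCl. This made 2 higher and 1 lower with L-lactate, and 0 higher and 1 lower with NaCl. Of all clusters, 3.27% and 1.15% were differentially expressed against untreated cells. By the adjusted p alone, 3 of the 5 stromal markers were higher and 1 lower with L-lactate than with NaCl. The log2 differences there ranged from -0.43 to 1.19. Against untreated cells 2 were higher and 2 lower with L-lactate, and 1 was higher and 4 lower with NaCl. By that measure 22.2%, 27.1% and 11.9% of all clusters differed, in either direction. The average of the stromal markers ranged over 9.13 to 9.26 with L-lactate, 8.66 to 9.05 with NaCl and 9.05 to 9.17 in untreated cells. The part of the cell makeup in the difference of CYP19A1 was not tested. The theca markers CYP17A1 and INSL3 averaged 5.13 to 5.82, 5.24 to 5.66 and 5.61 to 6.20 in L-lactate, NaCl and untreated arrays. INSL3, a peptide hormone of theca cells, was lower than in untreated cells by 0.69 with L-lactate and by 0.64 with NaCl, whereas CYP17A1, the enzyme of androgen synthesis, had adjusted p-values from 0.51 to 0.89. Of 5 endothelial, 5 leukocyte and 5 oocyte markers, 0 were differentially expressed in any comparison by limma or by the methods' t-test. At most 2 of each list had an unadjusted p under 0.05 in a comparison, as did 23.2% to 35.7% of all clusters. The averages of these lists over all arrays ranged from 3.53 to 3.74, from 3.88 to 4.18 and from 2.81 to 3.09. The leukocyte average was 3.88 to 3.97 with NaCl, below the 4.03 to 4.18 with L-lactate, and the oocyte average was 2.81 to 2.95 with L-lactate, below that of both controls.

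The enzymes of the HSD17B family differ in direction and substrate. HSD17B1 is the classical enzyme of GC that reduces estrone to estradiol. Its cluster read 3.75, 3.82, 3.68, 3.91 and 3.80 in the L-lactate arrays, 3.89, 3.85, 3.79, 3.93 and 3.93 in the NaCl arrays and 4.18, 4.19, 4.11, 3.97 and 4.03 in the untreated arrays. The untreated arrays were above all others, while the L-lactate and NaCl arrays overlapped. HSD17B1 was lower than in untreated cells by 0.30 with L-lactate (95% interval -0.42 to -0.19, adjusted p = 3.6e-04 by limma) and by 0.22 with NaCl (-0.33 to -0.10, adjusted p = 0.013). Between L-lactate and NaCl the difference was -0.09 (-0.20 to 0.02, adjusted p = 0.29). This is the dimmest of the 8 clusters, with group means from 3.79 to 4.09.

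HSD17B12 is a 3-ketoacyl-CoA reductase of fatty acid elongation that has also been described to reduce estrone. It read 9.96, 10.00, 10.06, 9.94 and 9.91 in the L-lactate arrays, 9.45, 9.58, 9.50, 9.52 and 9.56 in the NaCl arrays and 9.42, 9.46, 9.45, 9.36 and 9.58 in the untreated arrays. Every L-lactate array was thus above every control array, by at least 0.33, and the controls overlapped. The log2 difference was 0.45 against NaCl (95% interval 0.36 to 0.54, adjusted p = 1.9e-06 by limma) and 0.52 against untreated cells (0.43 to 0.61, adjusted p = 2.9e-07). These are fold changes of 1.37 and 1.43, short of the threshold, although the second interval reaches past it. NaCl differed from untreated by 0.07 (-0.02 to 0.16, adjusted p = 0.38).

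HSD17B4, the peroxisomal multifunctional enzyme of beta-oxidation, also oxidizes estradiol to estrone. It read 8.37, 8.44, 8.38, 8.39 and 8.39 with L-lactate, 8.24, 8.29, 8.25, 8.23 and 8.22 with NaCl and 8.37, 8.37, 8.36, 8.27 and 8.36 in untreated cells. The L-lactate arrays lay above all NaCl arrays, and a single untreated array was within the NaCl range. The difference between L-lactate and NaCl was 0.15 (95% interval 0.08 to 0.21, adjusted p = 0.0018 by limma), a 1.11-fold difference. NaCl was lower than untreated by 0.10 (-0.16 to -0.03, adjusted p = 0.047). With an array left out, that p stayed under 0.05 in 2 of 10 refits, those without NaCl replicate 2 (0.043) and without untreated replicate 4 (0.015), and with each array centred on its median it was 0.16. Between L-lactate and untreated cells the difference was 0.05 (-0.01 to 0.11, adjusted p = 0.26).

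**Figure D2:**
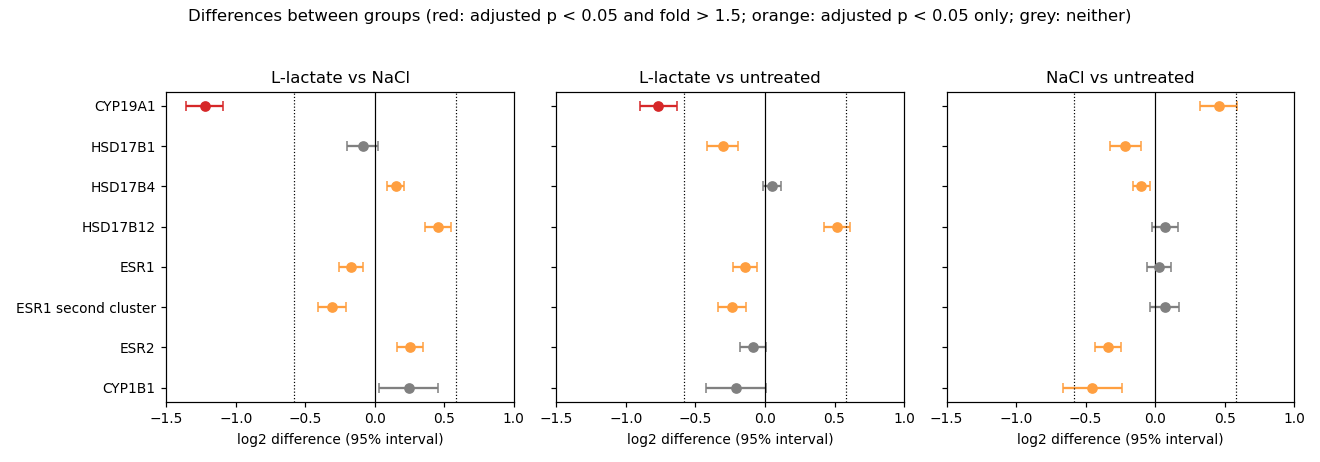
Log2 differences (horizontal axis) of the 8 clusters with their 95% intervals from limma, for L-lactate against NaCl, L-lactate against untreated and NaCl against untreated, where dotted lines mark a fold change of 1.5. Only the CYP19A1 intervals against NaCl (-1.36 to -1.09) and untreated (-0.90 to -0.63) lie wholly beyond a dotted line.

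The estrogen receptors moved in different directions between L-lactate and NaCl. ESR1 read 6.13, 5.92, 6.15, 6.08 and 6.09 with L-lactate, 6.32, 6.25, 6.23, 6.20 and 6.24 with NaCl and 6.17, 6.25, 6.23, 6.23 and 6.23 in untreated cells in the cluster with the higher mean. Its second cluster read 5.51, 5.50, 5.69, 5.67 and 5.64, then 5.83, 5.87, 5.95, 6.00 and 5.90, and 5.83, 5.74, 5.88, 5.84 and 5.91 in the same order of groups. In both clusters, all L-lactate arrays were below all arrays of both controls, and the controls overlapped.

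Against NaCl, ESR1 was lower with L-lactate by 0.17 (95% interval -0.26 to -0.08, adjusted p = 0.0067 by limma) in the first cluster and by 0.31 (-0.41 to -0.20, adjusted p = 2.1e-04) in the second. Against untreated cells it was lower by 0.14 (adjusted p = 0.017) and by 0.24 (adjusted p = 0.0014). The first of these had an adjusted p of 0.056 with each array centred on its median. All are fold changes between 1.11 and 1.24. NaCl and untreated cells differed by 0.03 (-0.06 to 0.12, adjusted p = 0.75) and 0.07 (-0.03 to 0.17, adjusted p = 0.45).

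ESR2 read 7.13, 7.27, 7.22, 7.18 and 7.20 with L-lactate, 6.95, 7.01, 7.00, 6.92 and 6.84 with NaCl and 7.25, 7.33, 7.38, 7.19 and 7.27 in untreated cells. Here the NaCl arrays stood apart, below all 10 others, and the L-lactate and untreated arrays overlapped. ESR2 was lower with NaCl than in untreated cells by 0.34 (95% interval -0.43 to -0.24, adjusted p = 9.4e-05 by limma) and higher with L-lactate than with NaCl by 0.25 (0.16 to 0.35, adjusted p = 5.2e-04). L-lactate differed from untreated by -0.08 (-0.18 to 0.01, adjusted p = 0.20). The fold changes were 1.26, 1.19 and 1.06. The RefSeq annotation shows ESR2 overlapping with its neighbour SYNE2, a gene of the nuclear envelope, whose cluster had adjusted p-values from 0.27 to 0.78.

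The balance of the clusters was followed within each array, as the difference of their log2 signals relative to its mean in untreated cells, which is a description without a test. ESR2 relative to ESR1 was at -0.37 ± 0.08 (SD, n = 5) with NaCl and at 0.06 ± 0.13 with L-lactate, and the arrays of these groups did not overlap. With the second cluster of ESR1 it was at -0.41 ± 0.10 and 0.16 ± 0.11. HSD17B12 relative to CYP19A1 was at 1.29 ± 0.16 with L-lactate and at -0.39 ± 0.08 with NaCl. These transcripts thus shifted against each other by 3.20-fold between L-lactate and NaCl. That shift restates their differences given above, 0.45 and -1.22, the highest and the lowest of the 7 genes in this comparison.

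**Figure D3:**
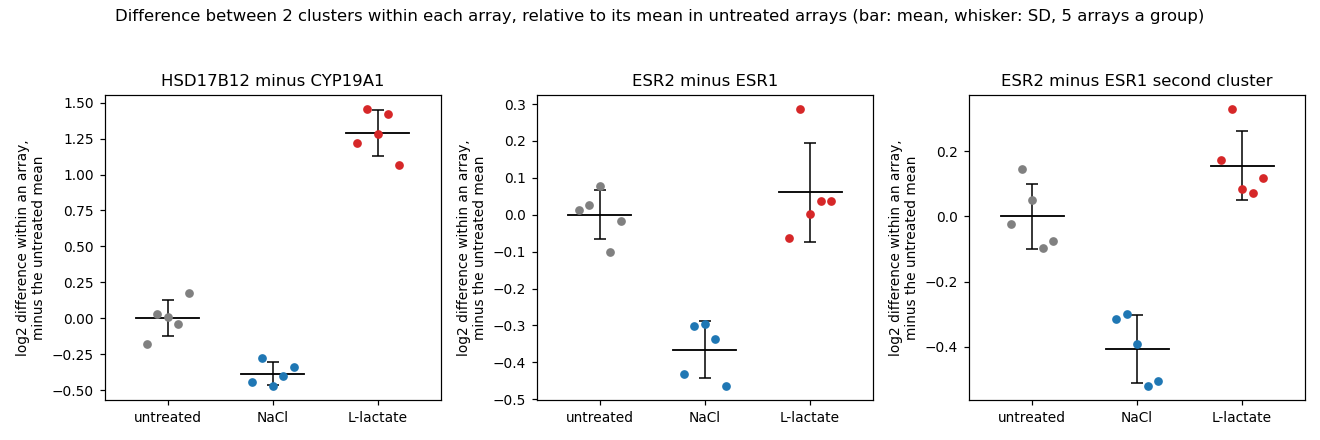
Difference between the log2 signals of 2 clusters within each array, relative to the mean of the untreated arrays (vertical axes), by group, with a point per array, a bar for the mean and a whisker for the SD of 5 arrays. HSD17B12 minus CYP19A1 is highest with L-lactate (mean 1.29), and ESR2 minus either ESR1 cluster is lowest with NaCl (means -0.37 and -0.41).

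CYP1B1 is a cytochrome P450 that hydroxylates estradiol to a catechol estrogen. It read 6.64, 6.50, 6.55, 6.48 and 6.57 with L-lactate, 6.40, 6.70, 6.02, 6.15 and 6.27 with NaCl and 6.77, 6.82, 6.58, 6.73 and 6.89 in untreated cells. The NaCl arrays varied most (SD 0.26, against 0.06 with L-lactate and 0.12 in untreated cells), and NaCl replicate 2 lay inside the untreated range. CYP1B1 was lower with NaCl than in untreated cells by 0.45 (95% interval -0.67 to -0.24, adjusted p = 0.0069 by limma), a 1.37-fold difference. By the methods' t-test, without moderation of the spread, the adjusted p was 0.067. Between L-lactate and NaCl the difference was 0.24 (0.03 to 0.46, adjusted p = 0.10). Without NaCl replicate 2 it was 0.34, with an adjusted p of 0.0046. Between L-lactate and untreated cells it was -0.21 (-0.42 to 0.01, adjusted p = 0.15), with an adjusted p of 0.022 when only the 10 arrays of these groups were fitted and of 0.034 by the methods' t-test.

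Taken by non-overlap between arrays, 5 of the 7 genes separated L-lactate from NaCl, 4 separated L-lactate from untreated cells and 3 separated NaCl from untreated cells, where 19.1%, 22.4% and 11.0% of all clusters did. For CYP19A1 the order of levels was NaCl, untreated, L-lactate with each step beyond the spread. For ESR1 and HSD17B12 the controls did not differ beyond their spread and L-lactate stood apart, lower for ESR1 and higher for HSD17B12. The gap to the nearest untreated array was 0.02 for the first ESR1 cluster and 0.33 for HSD17B12. For ESR2 the NaCl arrays stood apart at the bottom, and for HSD17B1 the untreated arrays at the top. For HSD17B4 the L-lactate arrays were above those with NaCl and the untreated arrays overlapped with both. For CYP1B1, every pair of groups overlapped.

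Over the 15 arrays, which fall into 3 groups, the correlation of CYP19A1 was 0.811 and 0.883 with the clusters of ESR1, -0.843 with HSD17B12 and -0.845 with HSD17B4, as a description. With the group means taken out, the same correlations were 0.315, 0.189, -0.117 and -0.142. HSD17B4 and ESR2 correlated at 0.823, and at 0.769 after the group means were taken out, the largest such value of the 28 pairs of clusters. These arrays share their groups and the normalization.

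The genes whose pattern over the 15 arrays was most like that of CYP19A1, among 18003 others, were ABAT (GABA transaminase, r = 0.988), TRIB2 (a pseudokinase, r = 0.988), PCBP2 (an RNA-binding protein, r = 0.985), SMC6 (a subunit of a chromosome maintenance complex, r = 0.983) and EEPD1 (a protein of endonuclease and exonuclease type, r = 0.981). ABAT was lower by 0.85 and EEPD1 by 0.72 with L-lactate than with NaCl. The most opposite were GPR50, an orphan receptor related to melatonin receptors, TAGLN2, an actin-binding protein, F3, the tissue factor of coagulation, INSYN2A, a protein of inhibitory synapses, and PRPF19, a splicing factor (r from -0.988 to -0.985). GPR50 was higher with L-lactate than with NaCl by 1.61 and INSYN2A by 1.23. These correlations are carried by the 3 group levels, which each of these genes shows in the same or the reverse order.

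**Figure D4:**
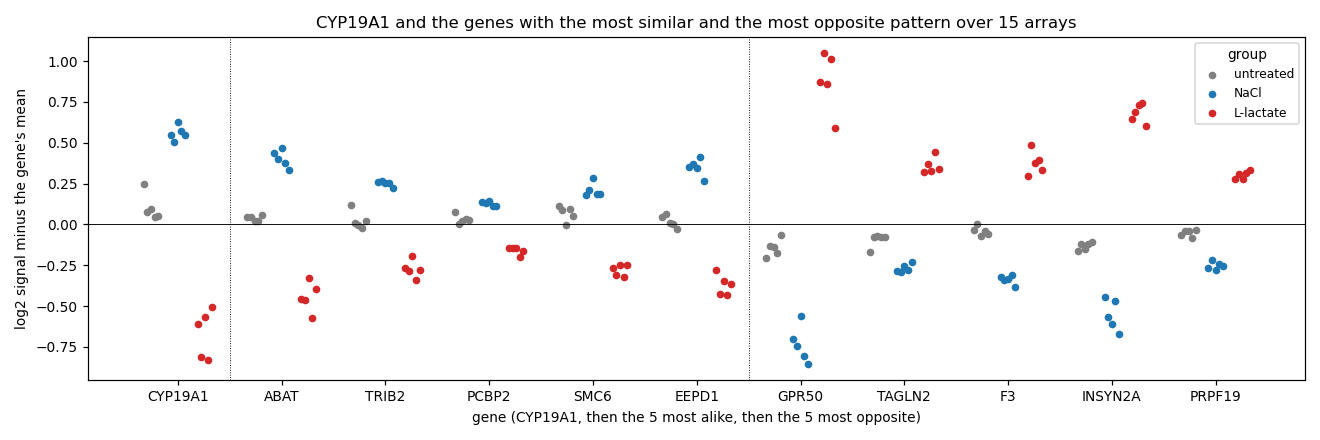
Log2 signal of CYP19A1, of the 5 genes most like it and of the 5 most opposite to it, minus each gene's mean over 15 arrays (vertical axis), with a point per array coloured by group. In the genes most alike the NaCl arrays are on top and the L-lactate arrays at the bottom, in the opposite genes the reverse, and the range is wider for CYP19A1 (difference of 1.22 between L-lactate and NaCl) than for PCBP2 (0.29).

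The same search for HSD17B12 gave PLIN2, a coat protein of lipid droplets, ACSS2, which makes acetyl-CoA from acetate, CYB5B, a mitochondrial cytochrome b5, LPIN1, a phosphatidate phosphatase, and SYT1, a calcium sensor of vesicle fusion (r from 0.980 to 0.988). LPIN1 was higher with L-lactate by 1.11 against NaCl and by 1.36 against untreated cells. For ESR2, whose NaCl arrays were lowest, it gave the tight junction gene CLDN11, C5H12orf75, the metallothionein gene MT2A, the kinase gene PLK2 and PCOLCE2, which enhances collagen processing (r from 0.936 to 0.944). For HSD17B4 it gave PRSS12, FIBIN, HK2, PKIB and CGRRF1 (r from 0.929 to 0.938), of which HK2 is a hexokinase. For ESR1 it gave LOC781777, MINDY4, WDR27, MRNIP and RHBDF1 (r from 0.893 to 0.942), for HSD17B1 it gave LOC768319, RUFY3, PLS3, HTRA1 and MAGEE2 (r from 0.906 to 0.943) and for CYP1B1 it gave PTPRM, TIPARP, NAA30, AHCYL1 and PKIA (r from 0.860 to 0.869).

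Other genes of the pathway were taken from 6 lists. In the 4 lists with 0 differentially expressed genes by limma, the methods' t-test called 0 as well. Of 9 further genes of the HSD17B family, 0 were differentially expressed in any comparison and 6, 4 and 4 had an unadjusted p under 0.05, in comparisons where 31.0%, 35.7% and 23.2% of all clusters did. By the adjusted p alone, 3 were higher and 2 lower with L-lactate than with NaCl. Against untreated cells 3 were higher and 0 lower with L-lactate, and 2 higher and 1 lower with NaCl. Of all clusters, 22.2%, 27.1% and 11.9% differed by the adjusted p in these comparisons, in either direction. The list had medians of -0.05, 0.01 and 0.02 for L-lactate against NaCl, L-lactate against untreated and NaCl against untreated. Short of the fold threshold, HSD17B7, which reduces estrone and also serves cholesterol synthesis, was higher with L-lactate by 0.45 against NaCl and by 0.57 against untreated cells (adjusted p = 1.8e-07 and 8.9e-09 by limma). HSD17B11, an enzyme of lipid droplets, was higher by 0.52 and 0.50, and HSD17B14 by 0.38 and 0.12. HSD17B10, a mitochondrial enzyme, and HSD17B8 were lower with L-lactate than with NaCl by 0.14 (adjusted p = 0.0042) and 0.12 (adjusted p = 0.042). HSD17B2, which inactivates estradiol, differed by -0.01, 0.04 and 0.05 (adjusted p from 0.81 to 0.97).

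Of the genes that feed aromatase and its electron transfer, 7 of 9 have a cluster of their own, and STAR and FDXR are not reported. FDX1, the ferredoxin that supplies electrons to mitochondrial steroid enzymes, rose by 0.85 against NaCl and by 0.96 against untreated cells with L-lactate (adjusted p = 3.5e-09 and 8.0e-10 by limma). The other 6 were not differentially expressed. Of all clusters, 1.89% were differentially expressed between L-lactate and NaCl and 3.27% between L-lactate and untreated cells. POR, the reductase that hands electrons to aromatase, was at -0.09 (adjusted p = 0.066) between L-lactate and NaCl, and lower than in untreated cells by 0.25 with L-lactate and by 0.16 with NaCl. CYB5A, a cytochrome b5 of steroid synthesis, was lower than in untreated cells by 0.42 with L-lactate and by 0.49 with NaCl. HSD3B1 and CYP11A1, enzymes of progesterone synthesis, were at 0.06 (adjusted p = 0.13 by limma) and 0.32 (adjusted p = 1.5e-06) between L-lactate and NaCl. By the adjusted p alone, 2 of the 7 were higher and 0 lower with L-lactate than with NaCl. Against untreated cells 4 were higher and 2 lower with L-lactate, and 1 was higher and 2 lower with NaCl. Of all clusters, 22.2%, 27.1% and 11.9% differed by the adjusted p in these comparisons, in either direction. The list had medians of 0.17, 0.16 and -0.04.

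Of 18 measured regulators of CYP19A1 in GC, 0 were differentially expressed in any of the comparisons. FSHR, FOXL2, NR5A2 and GATA4 are also among the GC markers above, so the counts of these lists share genes. An unadjusted p under 0.05 was found for 13, 10 and 12, where 31.0%, 35.7% and 23.2% of all clusters had one. By the adjusted p alone 3 were higher and 8 lower with L-lactate than with NaCl, and 6 were higher and 3 lower than in untreated cells, where 22.2% and 27.1% of all clusters differed in either direction. FOXL2, a transcription factor of GC identity, was just under the fold threshold, lower by 0.58 (SE 0.06, adjusted p = 7.3e-06 by limma) than with NaCl and by 0.39 than in untreated cells. NR2F1, an orphan nuclear receptor of the COUP-TF type, was higher by 0.58 (SE 0.08, adjusted p = 4.0e-05) than with NaCl, again just under. FSHR, the FSH receptor, and PRKAR2B, a regulatory subunit of protein kinase A, were lower than with NaCl by 0.29 and 0.18. Between NaCl and untreated cells 8 regulators were higher and 1 lower by the adjusted p, where 11.9% of all clusters differed, among the higher ones INSR with 0.38, FOXO1 with 0.43, NR5A2 with 0.28 and FSHR with 0.21. NR5A1, a nuclear receptor that binds the aromatase promoter, had adjusted p-values from 0.083 to 0.95. The medians of this list were -0.10, 0.03 and 0.12.

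**Figure D5:**
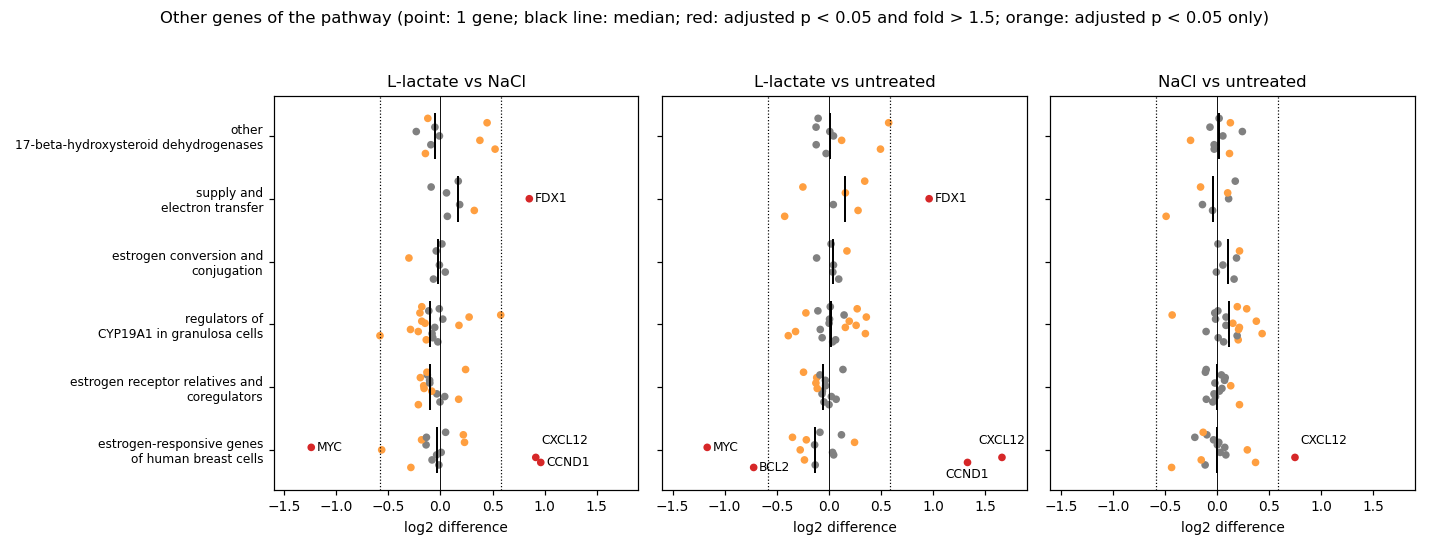
Log2 differences (horizontal axis) of the measured genes of 6 lists around estradiol in the 3 comparisons, with a point per gene, a black line at each list's median and dotted lines at a fold change of 1.5. Named points are differentially expressed, namely FDX1, MYC, CCND1, CXCL12 and BCL2, and the medians lie between -0.13 and 0.17.

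Of 14 measured relatives and coregulators of the estrogen receptors, 0 were differentially expressed, and all differences lay between -0.24 and 0.24. An unadjusted p under 0.05 was found for 11, 6 and 4, where 31.0%, 35.7% and 23.2% of all clusters had one. Between L-lactate and NaCl, 6 were lower by the adjusted p, such as the coactivator CREBBP with -0.21 and the corepressor NRIP1 with -0.19, and 2 were higher, the repressor SAFB with 0.24 and the orphan receptor ESRRB with 0.17. Between L-lactate and untreated cells 0 were higher and 4 lower, and between NaCl and untreated cells 2 were higher and 0 lower. Of all clusters, 22.2%, 27.1% and 11.9% differed by the adjusted p in these comparisons, in either direction. GPER1, the membrane estrogen receptor, had adjusted p-values from 0.64 to 0.88. The list had medians of -0.10, -0.05 and 0.00. Of 6 measured genes of estrogen conversion and conjugation 0 were differentially expressed, with medians of -0.03, 0.04 and 0.11. In each comparison 1 had an unadjusted p under 0.05, against the same 31.0%, 35.7% and 23.2% of all clusters. SULT1A1, a sulfotransferase, was higher than in untreated cells by 0.17 with L-lactate and by 0.21 with NaCl, and STS, the steroid sulfatase, was lower with L-lactate than with NaCl by 0.30 (adjusted p = 0.036).

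The last list holds 15 genes known to respond to estradiol in human breast cells, which need not do so in bovine GC. As MYC, CCND1, BCL2 and CXCL12 appear in the material published with these samples, their changes are not independent evidence for the list. Between L-lactate and NaCl, 2 of the 15 were differentially expressed as higher, 1 as lower and 12 as neither. Of all clusters, 1.89% were differentially expressed in this comparison. CCND1, the G1 cyclin, rose by 0.96 and CXCL12, a chemokine, by 0.91, and MYC, a transcription factor of growth, fell by 1.24. Against untreated cells CCND1 rose by 1.33 and CXCL12 by 1.66, while MYC fell by 1.17 and BCL2, a survival factor, fell by 0.72. This made 2 higher and 2 lower, where 3.27% of all clusters were differentially expressed. Between NaCl and untreated cells CXCL12 alone was differentially expressed, higher by 0.75, where 1.15% of all clusters were. The other members include PGR, the progesterone receptor, which was higher with L-lactate by 0.23 and 0.25 against the controls, and GREB1, a cofactor of ESR1, with adjusted p-values from 0.081 to 0.45. The medians of the list were -0.04, -0.13 and 0.00.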

How the data were processed

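Cultures of bovine granulosa cells (5 with L-lactate, 5 with NaCl and 5 untreated) gave RNA for 15 one-colour arrays. In the deposited table each transcript cluster has a log2 signal, for which the authors corrected the background, normalized the arrays and summarized the probes by RMA with the Affymetrix Expression Console (1.4.1.46, per the submitters' processing notes). No value was changed before use, and 0 columns were left out. The genome build is not given in the sources used here, and the number of arrays limits the precision.

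The platform annotation gives 18457 of 26773 clusters exactly 1 gene symbol, 688 several and 7628 none. All 7 gene IDs of the genes described were found in the bovine RefSeq annotation (ARS-UCD2.0). Where a gene had more than 1 cluster, the brightest on average was taken, and RefSeq was used only for names and neighbours. limma 3.58.1 in R 4.3.3 was fitted to all clusters and 15 arrays with a coefficient per group and no replicate block, with Benjamini-Hochberg adjustment over all clusters. Intervals are limma's 95% intervals. The procedure was tested on simulated data. Tables were handled with data.table (version 1.17.8) and pandas 2.3.3 and figures drawn with matplotlib 3.10.9.

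Genes named are the 7 genes, the 5 most like each by Pearson correlation over the 15 arrays (for CYP19A1 also the 5 most opposite) and the differentially expressed genes of 6 pathway lists and 6 lists of cell type markers. Other genes of these lists, and neighbouring genes, were named after their values were seen. The genes and lists were chosen with earlier results of these data known. Alternatives were a fit of 10 arrays, the unmoderated t-test, a replicate block and a filter at a mean of 4. Others were centring on the array median, Tukey biweight averages, an intensity trend, no fold threshold, the other ESR1 cluster and each array left out.

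Neither a scan date nor a detection call was used here, and batches and signal over background were not tested.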

Additional observations from a re-analysis of the deposited data

Results flagged for a closer look

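In 3 of the 24 groups of 5 arrays (8 clusters in 3 groups), 1 array stood far from the others by Dixon's criterion, which chance meets in about 1 of 20 groups. All 3 are untreated arrays. CYP19A1 was at 8.66 in untreated replicate 1, and the other untreated arrays lay between 8.45 and 8.50. Without this array CYP19A1 was at 0.49 for NaCl against untreated (adjusted p = 1.1e-04 by limma) and at -0.73 for L-lactate against untreated (adjusted p = 8.5e-07). HSD17B4 was at 8.27 in untreated replicate 4, against 8.36 to 8.37 in the others, and without it NaCl was lower than untreated by 0.12 (adjusted p = 0.015). ESR1 was at 6.17 in untreated replicate 1, against 6.23 to 6.25 in the others, and without it L-lactate was lower than untreated by 0.16 (adjusted p = 0.018).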

How the results depend on the processing

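Without the fold threshold, 5, 4 and 5 of the 7 genes passed in the comparisons of L-lactate with NaCl, L-lactate with untreated and NaCl with untreated, in place of 1, 1 and 0. Under the other alternatives run the numbers were 1, 1 and 0. No log2 difference of the 7 genes changed its sign under the alternatives or with an array left out. CYP19A1 ranged from -1.26 to -1.18 against NaCl, from -0.81 to -0.73 against untreated cells and from 0.44 to 0.49 for NaCl against untreated with an array left out. With the replicate number as a block, CYP19A1 was at -1.22 between L-lactate and NaCl (adjusted p = 2.4e-07 by limma) and at -0.77 against untreated cells (adjusted p = 3.6e-06), and by the adjusted p alone HSD17B4 between NaCl and untreated was lost (0.073). After subtraction of the group means, arrays with the same number correlated between -0.07 and 0.07 (15 pairs, 0 above 0.1), and 6 of the 15 arrays correlated best with an array of their own number, so that the labels and these values do not settle whether the numbers pair the cultures. The unmoderated t-test called 496, 861 and 281 of all clusters in these comparisons in place of 505, 875 and 307. Before Benjamini-Hochberg adjustment it called 511, 880 and 326. The filter removed HSD17B1, so it has no value there.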

Other observations

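Genes that neighbour the described genes in the RefSeq annotation were looked up by their order. GLDN alone of them was differentially expressed, between L-lactate and each control, where 1.89% (NaCl) and 3.27% (untreated) of all clusters were. Next to CYP19A1, GLDN, a protein of the nodes of Ranvier, rose with L-lactate by 0.60 against NaCl and by 0.63 against untreated cells (adjusted p = 2.2e-07 and 8.7e-08 by limma), and on the other side TNFAIP8L3, a lipid transfer protein, was at -0.04 (adjusted p = 0.62) and 0.14 (adjusted p = 0.046). CCDC170, next to ESR1, was lower with L-lactate by 0.36 against NaCl (adjusted p = 0.015) and by 0.48 against untreated cells (adjusted p = 0.0016), whereas SYNE1 on the other side was at -0.06 and -0.14 (adjusted p = 0.54 and 0.10). NAGLU, a lysosomal enzyme gene next to HSD17B1, was lower than in untreated cells by 0.27 with L-lactate and by 0.20 with NaCl, and COASY on the other side was at -0.09 and -0.02. TTC17, next to HSD17B12, was lower with L-lactate than with NaCl by 0.26 (adjusted p = 7.1e-05). ALKBH3 on the other side was at -0.08 (adjusted p = 0.28 by limma). Next to HSD17B4, TNFAIP8 was higher than in untreated cells by 0.51 with L-lactate and by 0.41 with NaCl. PRR16 on the other side had adjusted p-values from 0.85 to 0.95. RMDN2 and ATL2, next to CYP1B1, had adjusted p-values from 0.12 to 0.92. For LOC100297513, next to ESR2, they ran from 0.22 to 0.95.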
